A study of Mus musculus with 44 samples.

Results

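The genes described here are 48 chaperone and heat-shock genes of the mouse, followed through every lung library of the study and grouped by the cell compartment in which their proteins work. They were chosen by name, from a list of molecular chaperones and their regulator, with earlier results of these data known. Their called shares, set below against those of all genes, are therefore not an independent test. All 48 were found among the 24150 genes of the subcutaneous table and among the 26940 genes of the intratracheal table. The list holds 9 inducible cytosolic genes, 4 small heat-shock proteins, 7 constitutive cytosolic genes, 6 co-chaperones of HSP90, 7 subunits of the cytosolic chaperonin, 4 mitochondrial chaperones, 10 chaperones of the endoplasmic reticulum (ER) and the regulator Hsf1.

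The study asked what a loss-of-function mutation of Timp2, and daily treatment with recombinant human TIMP2 (rTIMP2), do to lungs of C57BL6j mice that carry LL/2-Luc2 cells. LL/2-Luc2 is a Lewis lung carcinoma line that makes luciferase, and TIMP2 is a secreted protein that inhibits matrix metalloproteinases. In the subcutaneous model, wild-type mice had the cells under the skin of the flank and their lungs were taken at an early stage of metastasis, after HBSS, a balanced salt solution (n = 5), after rTIMP2 from day 0 (n = 5) or after rTIMP2 from day 7 (n = 4). For the intratracheal model, the cells were put into the airways of wild-type (WT) mice or of mice with mutant Timp2 (MT2), which then received HBSS or rTIMP2, and tumour-free lungs of both genotypes were also sequenced, with n = 5 in each of these 6 groups. Treated mice received 200 µg of rTIMP2 per kg per day into the peritoneum. The labels give no age or sex, and do not say how the Timp2 allele was made. Each library is poly(A)-selected RNA from about 3 mm3 of lung. The values are normalized counts, so a value near 1 stands for about 1 read, and the estimated depth was 14.9 to 19.4 M reads (M, mega) for subcutaneous libraries and 10.7 to 17.1 M for intratracheal ones.

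Several libraries stood apart. The tumour-cell reporter was 0 in the 10 tumour-free lungs and 39.3 to 70.9 in the 10 HBSS tumour lungs of the intratracheal model, but it was 23.3, 0, 0, 67.7 and 0 in the WT lungs given rTIMP2 and 75.5, 0.983, 50.9, 37.9 and 55.3 in the MT2 lungs given rTIMP2. Xist, which is expressed in female cells, was 4118 to 6657 in the tumour-free lungs, while replicates 2, 3 and 5 of the WT rTIMP2 group had 42.2, 92.4 and 54.5 and replicate 2 of the MT2 rTIMP2 group had 119. All 14 subcutaneous libraries had Xist at 3.75 to 40.8. Krt13, a keratin of squamous epithelium, was 21178, 97.1, 118, 115 and 141 in the subcutaneous HBSS lungs, 22601, 17.5, 25.5, 9776 and 272 in the WT HBSS tumour lungs and 93.3, 37274, 114425, 61.2 and 65.8 in the WT rTIMP2 lungs. Timp2 RNA was 10147 to 11489 in WT and 5948 to 6237 in MT2 tumour-free lungs, which do not overlap, but it was 5753 to 7781 in WT and 6512 to 11992 in MT2 HBSS tumour lungs, so there it does not check the genotype labels. Tumour-free lungs did not share the low Xist. Ddx3y, a gene of the Y chromosome, was higher in WT rTIMP2 than in WT HBSS lungs by limma (log2 fold change 1.33, adjusted p = 0.04). It also rose with the tumour in WT lungs (6.53, adjusted p = 1.1e-06). In the 4 rTIMP2 lungs with little or no reporter and low Xist, sex, tumour content and treatment cannot be told apart. Whether samples were swapped was not tested. Every intratracheal rTIMP2 value below carries that limit. The part of these differences in the chaperone values was not tested, except by leaving out libraries.

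Chaperones bind unfolded protein and help it to fold, to refold after damage or to be passed on for destruction. In the cytosol, HSP70 proteins work with DNAJ (HSP40) partners and nucleotide exchange factors such as Hsph1 and Bag3, HSP90 proteins work with a set of co-chaperones, and the chaperonin ring folds actin, tubulin and other clients. Heat and protein damage release the transcription factor HSF1, which raises the inducible cytosolic genes through heat-shock elements. Mitochondria use HSP60 (Hspd1) with its lid HSP10 (Hspe1), and the ER uses BiP (Hspa5), GRP94 (Hsp90b1) and the lectin chaperones calnexin and calreticulin, which are raised in the unfolded protein response through ER stress elements.

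The promoters of the members show these 2 kinds of element, and they are printed to show the letters behind the counts, whose part in the values below was not tested. RefSeq promoters of GRCm38.p6, from 250 bases before to 50 bases after a start, were found for 39 of the 48 members. No promoter was matched for Hspa8, Hsp90ab1, Hsp90aa1, Cryab, Cct4, Hspa9, Hyou1, Hspa13 and Hsf1. A pair of heat-shock units was searched on both strands as GAA, any 2 bases and TTC, or as TTC, any 2 bases and GAA. A run of 3 units adds 2 further bases and the next unit, so that each run of 3 also holds pairs. A gene can have several promoters, and it is counted where any of them has a match. Of 27025 genes, 17% had a pair and 0.662% a run of 3 (15.1% and 0.603% of the 32851 single promoters). Among members, 16 of 39 had a pair and 5 of 39 a run of 3, which were Hsph1, Chordc1, Dnajb6, Hspd1 and Hspe1. A pair was found in 6 of 8 inducible genes, 3 of 3 small heat-shock proteins, 2 of 6 co-chaperones, 2 of 6 chaperonin subunits, 1 of 5 constitutive genes, 2 of 3 mitochondrial genes and 0 of 8 ER genes. The ER stress element (CCAAT, any 9 bases, then CCACG, either strand) was present in 0.137% of genes (0.119% of single promoters) and in 5 of 39 members, all of them among the 8 ER genes. A match is a string of letters and not a proven binding site.

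The inducible pair Hspa1a (chr17:34969190-34972156, minus strand) and Hspa1b (chr17:34956436-34959238, minus strand), neighbours on 1 chromosome, encode near-identical HSP70 proteins. Their 250 upstream bases were identical at 247 positions (98.8%), with the pair of heat-shock units in capitals 104 bases before the start in both.
Hspa1a (chr17:34972157-34972406, minus strand): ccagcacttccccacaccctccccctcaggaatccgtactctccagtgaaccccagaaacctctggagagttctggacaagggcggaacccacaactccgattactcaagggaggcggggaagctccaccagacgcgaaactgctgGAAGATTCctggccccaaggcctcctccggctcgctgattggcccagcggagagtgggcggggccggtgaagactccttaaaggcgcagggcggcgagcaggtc
Hspa1b (chr17:34959239-34959488, minus strand): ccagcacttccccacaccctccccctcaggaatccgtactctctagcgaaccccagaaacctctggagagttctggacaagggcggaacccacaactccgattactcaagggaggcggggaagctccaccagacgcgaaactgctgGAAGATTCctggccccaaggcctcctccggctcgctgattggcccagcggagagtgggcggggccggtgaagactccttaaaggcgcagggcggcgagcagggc

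The runs of 3 units are in capitals in the next windows. That of Dnajb6 is not printed, and Dnajb6 was not called in the day 0 comparison below. Those of Hsph1 and Chordc1 lie in or across the first exon. The Hspd1 and Hspe1 windows are 1 element read on opposite strands, near the starts of these divergent neighbours. By GENCODE M21 this element lies in an exon of Hspd1.
Hsph1 (chr5:149636282-149636306, minus strand): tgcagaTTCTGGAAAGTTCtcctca
Chordc1 (chr9:18292260-18292288, plus strand): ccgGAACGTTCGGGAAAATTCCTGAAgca
Hspd1 (chr1:55088053-55088082, minus strand): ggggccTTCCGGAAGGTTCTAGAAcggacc
Hspe1 (chr1:55088053-55088082, plus strand): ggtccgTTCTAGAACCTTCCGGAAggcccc

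The ER stress elements, in capitals, are shown for contrast, as none of the 8 ER promoters held a pair of heat-shock units. The Hspa5 element lies in an exon of a longer Hspa5 transcript, and the others lie before the annotated genes.
Hspa5 (chr2:34772020-34772048, plus strand): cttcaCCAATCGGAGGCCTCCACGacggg
Calr (chr8:84847070-84847098, minus strand): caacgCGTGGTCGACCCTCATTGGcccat
Canx (chr11:50325795-50325823, minus strand): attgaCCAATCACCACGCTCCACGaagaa
Dnajc3 (chr14:118937822-118937850, plus strand): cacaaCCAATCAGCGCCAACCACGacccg
Hsp90b1 (chr10:86705633-86705661, minus strand): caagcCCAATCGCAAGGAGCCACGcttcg
Hsp90b1 (chr10:86705528-86705556, minus strand): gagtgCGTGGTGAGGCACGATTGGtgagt

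In the subcutaneous model, chaperone RNA was lower in lungs treated with rTIMP2 from day 0 than in HBSS lungs, and the compartments differed in how many members were called. By limma with p-values adjusted over all 17282 genes tested, 31 of 48 members fell and 0 rose, where 4.21% of all genes were called lower, 3.88% higher and 8.1% in either direction. All 48 estimates were below 0, with a median log2 fold change of -0.41 against -0.0031 over all genes. The inducible cytosolic genes fell in 9 of 9 cases (median -1.58), the HSP90 co-chaperones in 6 of 6 (-0.97), the chaperonin in 5 of 7 (-0.30), the small heat-shock proteins in 2 of 4 (-0.56), the mitochondrial genes in 2 of 4 (-0.51), the constitutive cytosolic genes in 3 of 7 (-0.33) and the ER genes in 4 of 10 (-0.28). In bulk tissue, fewer cells of a type and less RNA per cell cannot be told apart. The labels do not say that the samples of a group are separate animals, so p-values reflect the spread between samples, which may in part be technical.

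Hspa1b, an HSP70 with little expression in unstressed cells, was 3529.6, 9511, 4808, 4800.3 and 10551 in the HBSS lungs and 377, 637, 504, 592 and 728 in the day 0 lungs, a log2 fold change of -3.45 ± 0.34 (adjusted p = 0.00078), where the value after ± is a standard error in this and later fold changes. The highest treated lung lay far below the lowest HBSS lung. Most members with printed values were picked for a call and for groups that do not overlap. Lack of overlap is therefore not a result for them, here or below. Hspa1a was 2506, 5964, 3342, 3519 and 6755 against 312, 546, 421, 484 and 755, a log2 fold change of -3.09 ± 0.33 (adjusted p = 0.0012), again without overlap. Reads of such close copies may be split between them, so the sum is safer. Hspa1a and Hspa1b together had 11057 ± 4993 (SD, n = 5) in HBSS lungs and 1071 ± 296 (SD, n = 5) in day 0 lungs.

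Hsph1 (chr5:149614287-149636376, minus strand), the exchange factor HSP110, was 2785, 5129.8, 3579.6, 3029 and 5524 in HBSS lungs and 631, 793, 638, 712 and 806 in day 0 lungs, a log2 fold change of -2.44 ± 0.19 (adjusted p = 8.6e-05). Each treated lung was below every HBSS lung, and the 5 treated lungs differed little. Dnajb1, the HSP40 partner of inducible HSP70, was 2451, 3506, 2900.1, 2777 and 3588 against 938, 1088, 946, 888 and 905, a log2 fold change of -1.66 ± 0.10 (adjusted p = 1.1e-06). Dnaja1, another HSP40, was 4510.1, 7245, 5295, 4511 and 6752 against 1719, 1842, 1835, 1947 and 1961, a log2 fold change of -1.58 ± 0.12 (adjusted p = 2.3e-05). In both genes HBSS replicates 2 and 5 were the highest lungs. Hspb1, the small heat-shock protein HSP27, was 1660.5, 2583, 2101, 1812 and 2839.6 against 697, 1031, 825, 922 and 1002, a log2 fold change of -1.28 ± 0.16 (adjusted p = 0.0008), and did not overlap either. The other inducible members fell by less, from -1.14 ± 0.13 for Hsp90aa1, the stress-inducible HSP90, through -0.73 ± 0.08 for Bag3 and -0.66 ± 0.09 for Dnajb4, to -0.57 ± 0.10 for Hspa4l.

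**Figure D1:**
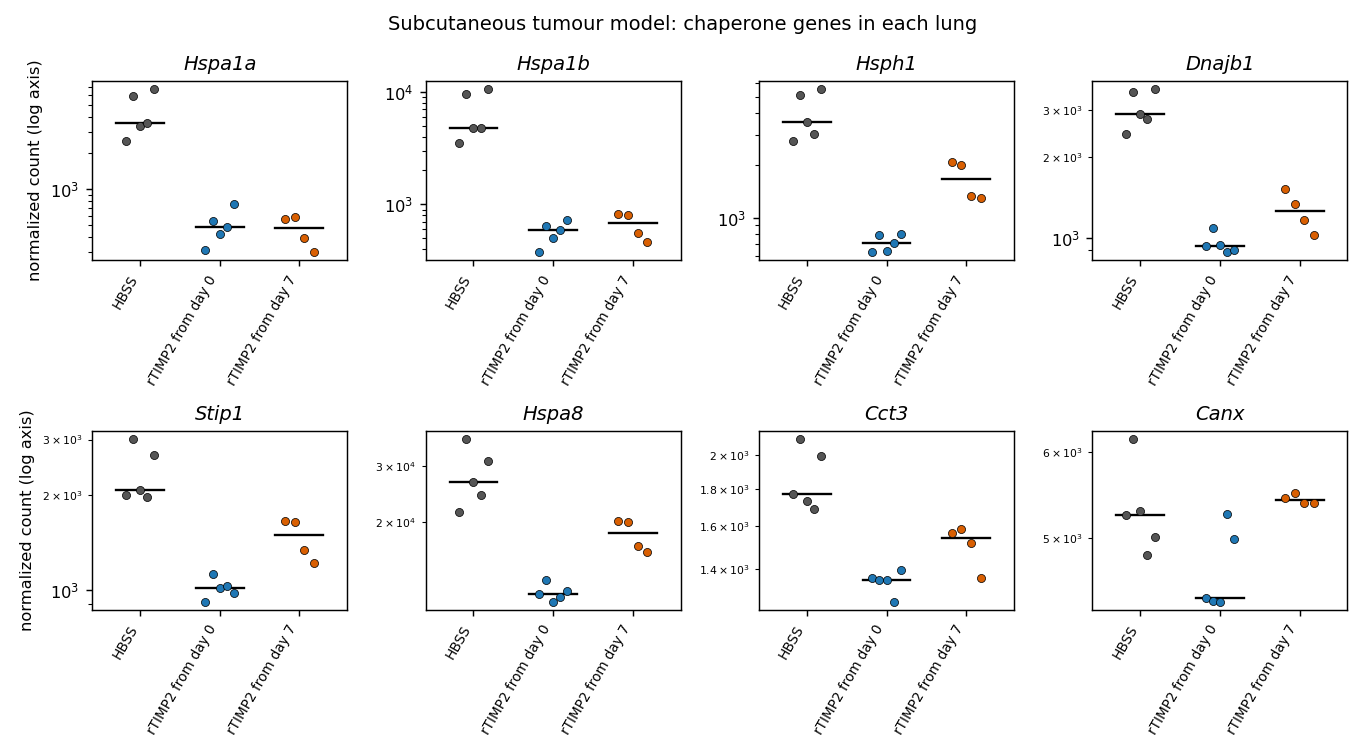
Normalized counts (log axis) of 8 chaperone genes in the subcutaneous lungs, with 1 point per library and the group median as a bar (HBSS n = 5, rTIMP2 from day 0 n = 5, rTIMP2 from day 7 n = 4). Hspa1a and Hspa1b are below every HBSS lung in both treated groups, Hsph1, Stip1 and Hspa8 lie between day 0 and HBSS in the day 7 lungs, and the ER gene Canx overlaps between groups.

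All 6 co-chaperones of HSP90 fell. Stip1, which links HSP70 to HSP90, was 2004, 3016, 2082, 1977 and 2682 in HBSS lungs and 917, 1127, 1018, 1026 and 979.7 in day 0 lungs (-1.20 ± 0.11 (adjusted p = 6.0e-05)). Cacybp, which binds calcyclin and a ubiquitin ligase, changed by -1.14 ± 0.11 (adjusted p = 6.0e-05) and Chordc1 by -1.09 ± 0.11 (adjusted p = 6.0e-05). Fkbp4, Ahsa1 and Ptges3, which act on the HSP90 cycle and its steroid receptor clients, fell by less, between -0.84 and -0.65. Among constitutive cytosolic genes, Hspa8, the housekeeping HSC70, was 21439.6, 36594, 26826, 24389 and 31050.4 against 11837, 13092, 11172, 11554 and 12102 (-1.21 ± 0.12 (adjusted p = 6.0e-05)), and Hsp90ab1 changed by -0.88 ± 0.11 (adjusted p = 0.00026). By contrast Dnajb6, Hspa14, Dnaja2 and Hspa2 were not called, with values from -0.05 to -0.33. The third called gene of this compartment was Hspa4, an HSP110 relative, at -0.39.

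Within mitochondria, the HSP60 gene Hspd1 (-0.82 ± 0.09 (adjusted p = 7.2e-05)) and its partner Hspe1 (-0.85 ± 0.09 (adjusted p = 7.2e-05)), which share the element printed above, both fell. The mitochondrial HSP70 Hspa9 (-0.20 ± 0.08 (adjusted p = 0.11)) and the mitochondrial HSP90 Trap1 (-0.10 ± 0.06 (adjusted p = 0.32)) were not called. Chaperonin changes were small, with the largest in Cct3, which was 1769, 2107, 1733, 1687 and 1994 in HBSS lungs and 1358, 1351, 1349, 1262 and 1395 in day 0 lungs (-0.46 ± 0.07 (adjusted p = 0.0016)). In the ER, Hspa5 was 8285, 11340.3, 9320.2, 8856 and 11066 against 5914, 6693, 5918, 6668 and 6543 (-0.61 ± 0.09 (adjusted p = 0.0014)) and was followed by Hyou1, Calr and Pdia4, at -0.42, -0.33 and -0.32. Canx, 5251, 6168, 5288, 4818 and 5012 against 4397, 4372, 4363, 5259 and 4984, overlapped between groups and was not called (-0.18 ± 0.08 (adjusted p = 0.19)). The transcript of Hsf1 itself was 747, 722, 764, 884 and 949.8 against 801, 866, 801, 698 and 779 and was not called (-0.04 ± 0.09 (adjusted p = 0.81)).

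Other markers moved with these groups. The summed level of 6 alveolar type 2 markers was 327416 to 393666 in HBSS and 239976 to 317895 in day 0 lungs, with 2 of 6 called lower, and that of 3 ciliated cell markers was 3949.7 to 5136 against 3013 to 3833, with 1 of 3 called lower. Neither sum overlapped between groups. Cirbp, a cold-inducible RNA-binding protein, was 943, 618, 793, 776 and 692 in HBSS lungs and 1888, 1464, 1802, 1412 and 1340.2 in day 0 lungs, a log2 fold change of 1.05 ± 0.12 (adjusted p = 0.00023) in the direction opposite to the chaperones, while Rbm3, the other cold-inducible gene, was 2076 to 2464 and 2128 to 2865. These sums overlapped: 5 mesothelial markers had 1348 to 5163 in HBSS and 971 to 1945 in day 0 lungs, with 1 of 5 called lower. The sum of 9 cardiac muscle markers was 10989 to 20674 against 7259.7 to 15059, with 2 of 9 called lower. The sum of 9 genes of tissue handling and immediate early response was 22835 to 48313 against 28935 to 35412, with 1 of 9 called lower. Their part in the chaperone differences was not tested. Without HBSS replicate 1, the library with the high Krt13 value, 32 members fell.

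With treatment that began on day 7, the inducible genes and co-chaperones again had the lowest medians, closer to 0 than after the day 0 start. By limma over 17389 genes, 24 of 48 members fell and 0 rose, where 5.92% of all genes were called lower, 4.46% higher and 10.4% in either direction. This comparison uses the same 5 HBSS lungs as the day 0 comparison, so the values are given side by side and their likeness is not a result. The median log2 fold change was -1.08 for inducible genes (7 of 9 called), -0.54 for co-chaperones (6 of 6), -0.36 for small heat-shock proteins (2 of 4), -0.34 for mitochondrial genes (3 of 4), -0.24 for the chaperonin (4 of 7), -0.09 for ER genes (1 of 10) and -0.07 for constitutive genes (1 of 7). The median over all members was -0.25 against 0.007 over all genes, and 44 of 48 estimates were below 0.

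Hspa1b was 815, 797, 563 and 462 in the 4 day 7 lungs, a log2 fold change from HBSS of -3.24 ± 0.38 (adjusted p = 0.0043), and Hspa1a was 560.0, 582, 394 and 299.5, a log2 fold change of -3.21 ± 0.35 (adjusted p = 0.0035). Both overlapped the day 0 lungs, and their sum was 1118 ± 309.6 (SD, n = 4). Dnajb1 was 1520.4, 1345, 1174 and 1027 (-1.27 ± 0.14 (adjusted p = 0.0012)). Hsph1 was 2089, 2008, 1332 and 1298 (-1.23 ± 0.27 (adjusted p = 0.027)) and Dnaja1 was 3035, 2754, 2448 and 2326 (-1.08 ± 0.16 (adjusted p = 0.0043)). Hspb1 was 1398, 1487, 1193 and 984 (-0.78 ± 0.18 (adjusted p = 0.031)). In each of these genes all 4 treated lungs lay below all 5 HBSS lungs, and replicates 1 and 2 were the higher treated lungs. Hspa8 changed by -0.60 ± 0.14 (adjusted p = 0.023) and Hspa5 by -0.35 ± 0.09 (adjusted p = 0.029). Hsp90aa1 (-0.54 ± 0.16 (adjusted p = 0.063)) and Hspa4l (-0.05 ± 0.11 (adjusted p = 0.81)) were the inducible genes that missed the threshold. The markers moved here too, and their part was not tested. The sums of alveolar type 2 (260504 to 295220.0), ciliated (3237 to 3834) and mesothelial markers (913 to 1246) lay below the HBSS ranges given above without overlap, with 4 of 6, 1 of 3 and 3 of 5 markers called lower. The skeletal muscle sum was also lower without overlap (257 to 318, HBSS 382 to 15132). In the other direction, the proliferation sum was higher without overlap (844 to 928, HBSS 678 to 764). The mesothelial gene Wt1 changed by -2.75 ± 0.51 (adjusted p = 0.009) and Rbm3 by -0.25 ± 0.07 (adjusted p = 0.034), while Cirbp was not called (0.33 ± 0.11 (adjusted p = 0.071)). The sum of handling and immediate early genes was 17534 to 25172 and overlapped HBSS, with 2 of 9 called lower. It was highest in replicate 4, which was lowest of its group for 8 of the 9 inducible genes. Without day 7 replicate 3, 15 members fell, and without replicate 4, which was lowest of its group for 36 members, 14 did.

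**Figure D2:**
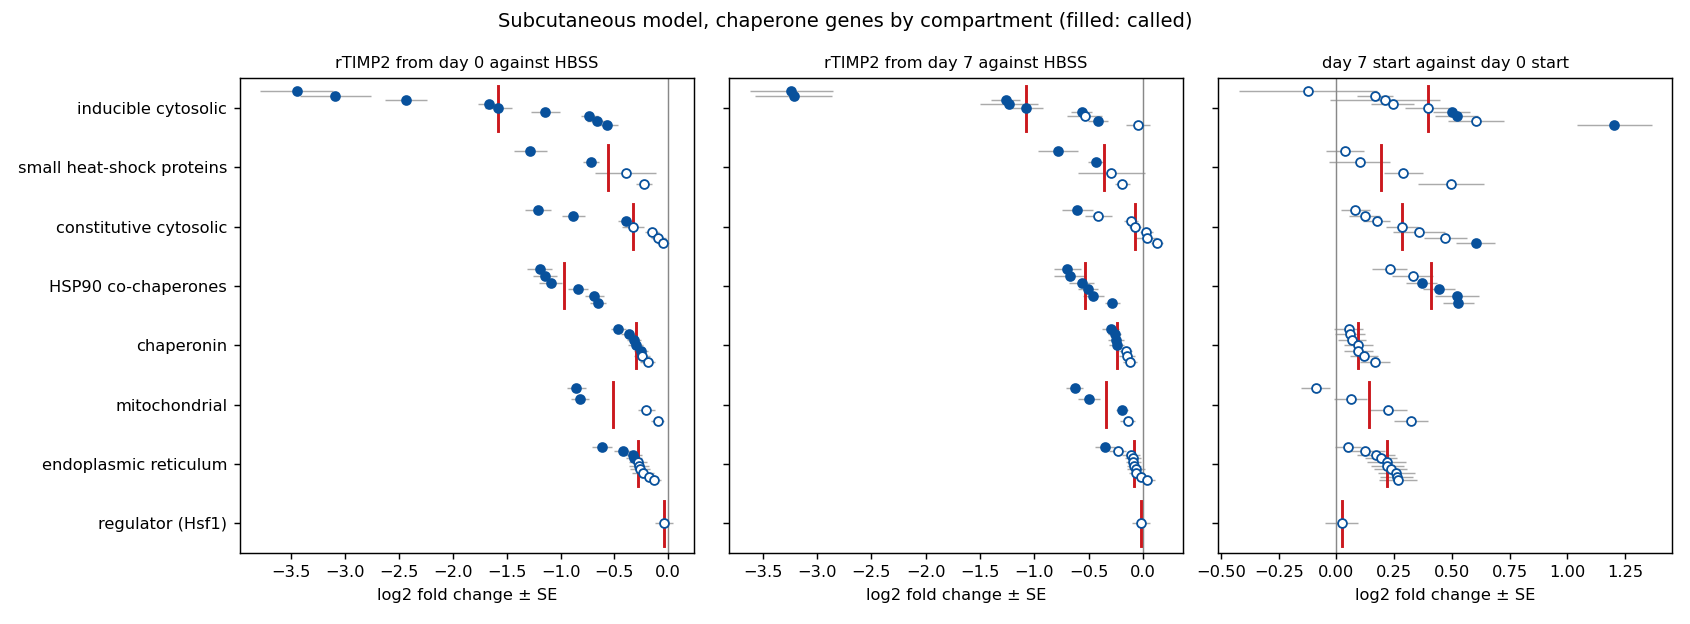
Log2 fold change ± SE of each of the 48 genes by compartment (rows) in the 3 subcutaneous comparisons (panels), filled where limma's adjusted p was under 0.05, with the compartment median as a red bar. Inducible genes and co-chaperones lie farthest left against HBSS (medians -1.58 and -0.97 for day 0) and farthest right between the treatment starts.

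The treatment starts were also compared with each other, which needs no HBSS lung. By limma over 17481 genes, 8 of 48 members were higher after the day 7 start and 0 were lower, where 0.154% of all genes were called higher, 0.0801% lower and 0.235% in either direction. They were Hsph1, Dnaja1 and Hspa4l among inducible genes, the constitutive Hspa8, and the co-chaperones Chordc1, Stip1, Cacybp and Ptges3. No small heat-shock protein, chaperonin, mitochondrial or ER gene was called, and 46 of 48 estimates were above 0 (median 0.22, all genes -0.0013). Hsph1 was 631, 793, 638, 712 and 806 after day 0 and 2089, 2008, 1332 and 1298 after day 7, a log2 fold change of 1.20 ± 0.16 (adjusted p = 0.026), and the groups did not overlap. Hspa8 was 11837, 13092, 11172, 11554 and 12102 against 20060.2, 20002, 16743 and 16084 (0.60 ± 0.08 (adjusted p = 0.0069)), and Chordc1, which had a run of 3 heat-shock units, was 679.6, 700.0, 728, 783 and 805 against 1061, 1073, 1024 and 1095 (0.53 ± 0.07 (adjusted p = 0.005)). None of the 4 day 7 lungs reached down to the day 0 lungs in either gene.

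Stip1 was 917, 1127, 1018, 1026 and 979.7 against 1656, 1643, 1340.4 and 1218 (0.52 ± 0.09 (adjusted p = 0.032)). Hspa4l, a relative of Hsph1, was 1159.5, 1385, 1343, 1502 and 1508 against 2337, 2002, 1799 and 1789.9 (0.52 ± 0.09 (adjusted p = 0.032)). Dnaja1 was 1719, 1842, 1835, 1947 and 1961 against 3035, 2754, 2448 and 2326 (0.50 ± 0.08 (adjusted p = 0.02)). By the rule that picked them, these 3 genes also separated the groups fully. The most inducible pair did not: Hspa1a changed by -0.12 ± 0.30 (adjusted p = 0.89) and Hspa1b by 0.21 ± 0.24 (adjusted p = 0.75). Cirbp was 959, 831, 1035 and 997 in day 7 lungs, below every day 0 lung (-0.72 ± 0.11 (adjusted p = 0.015)) and overlapping the HBSS lungs. The sum of the 9 handling and immediate early genes was 28935 to 35412 after day 0 and 17534 to 25172 after day 7, without overlap, with 2 of 9 called lower, and the immediate early gene Egr1 changed by -1.91 ± 0.24 (adjusted p = 0.032). The part of these genes in the chaperone difference between the starts was not tested. The count rested on few lungs: it was 1 without day 7 replicate 2, 2 without day 7 replicate 1, 3 without day 0 replicate 3, and 5 without day 0 replicate 2 or 4 or day 7 replicate 3.

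Of 70 further proteostasis genes outside the list (39 listed as cytosolic, 9 as mitochondrial and 22 as of the ER and the unfolded protein response), 18 fell and 0 rose after the day 0 start, a called share of 25.7% where 8.1% of all genes were called. The largest were Serpinh1 (-0.79 ± 0.11 (adjusted p = 0.0007)), a collagen chaperone that works in the ER although the list has it with the cytosolic genes, and the HSP40 gene Dnaja4 (-0.69 ± 0.08 (adjusted p = 8.6e-05)). After the day 7 start 15 fell and 2 rose (24.3%, all genes 10.4%), among them Bag2 (-0.51 ± 0.12 (adjusted p = 0.019)) and Herpud1 (-0.47 ± 0.08 (adjusted p = 0.0037)) lower and Dnajb14 (0.38 ± 0.06 (adjusted p = 0.004)) and Hspa12a (0.30 ± 0.08 (adjusted p = 0.034)) higher. Between the starts, Dnaja4 (0.44 ± 0.08 (adjusted p = 0.049)) and the HSP70 cofactor St13 (0.41 ± 0.07 (adjusted p = 0.027)) were the 2 of 70 called (2.9%, all genes 0.235%), both higher after day 7.

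In the intratracheal model, the chaperonin, mitochondrial and co-chaperone genes had the highest medians in WT tumour lungs. Tumour lungs given HBSS were compared with tumour-free lungs, and 32 members rose and 4 fell by limma over 16967 genes, where 32.8% of all genes were called higher, 37.7% lower and 70.5% in either direction. The chaperonin rose in 7 of 7 cases (median log2 fold change 1.38), the mitochondrial genes in 4 of 4 (1.51) and the co-chaperones in 6 of 6 (1.20). ER genes rose in 7 of 10 cases and fell in 1 (0.46), constitutive genes rose in 4 of 7 and fell in 1 (0.39), inducible genes rose in 3 of 9 and fell in 1 (0.23), small heat-shock proteins fell in 1 of 4 (-1.04) and Hsf1 rose (0.60 ± 0.11 (adjusted p = 0.00068)). The median over all genes was -0.07.

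Hspe1, HSP10, was 411, 428, 396, 426 and 425 in WT tumour-free lungs and 1972, 3996, 3462, 2412 and 2605 in WT HBSS tumour lungs, a log2 fold change of 2.74 ± 0.17 (adjusted p = 6.5e-07). Hspd1, HSP60, was 1074, 1228, 1158, 1004 and 1186 against 4523, 4116, 3783, 5529 and 4591 (1.99 ± 0.11 (adjusted p = 4.6e-07)). Both partners of the mitochondrial chaperonin thus had no tumour lung near a tumour-free one. Cacybp was 546, 549, 653, 501 and 578 against 1910.1, 2405, 2388, 2006 and 2682 (2.00 ± 0.11 (adjusted p = 4.6e-07)), and Stip1 was 923, 974, 1050.4, 831 and 1127 against 3518, 3352, 2596, 3439 and 2964 (1.69 ± 0.12 (adjusted p = 1.0e-06)). Cct3, a chaperonin subunit, was 1357, 1323, 1239, 1379.5 and 1472 against 3259, 5582, 4399.8, 4335 and 4458 (1.68 ± 0.13 (adjusted p = 2.2e-06)). None of these 3 overlapped between groups. In the opposite direction, Cryab, the small heat-shock protein alpha-B crystallin that is abundant in muscle, was 3029, 2606, 2435, 2940.2 and 2773 against 1879.7, 385, 296, 682 and 270.3 (-2.39 ± 0.45 (adjusted p = 0.00073)), with tumour replicate 1 far above the other 4.

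Inducible genes were uneven. Hsph1 was 619, 658, 807, 431 and 850.0 in tumour-free and 4626, 1959, 868, 3287 and 1404 in WT tumour lungs (1.65 ± 0.40 (adjusted p = 0.0037)) and Hsp90aa1 changed by 1.02 ± 0.16 (adjusted p = 0.00023). Hspa1a was 3115, 999, 4305, 483 and 558 against 2952, 311, 401, 1088 and 598 (-0.78 ± 0.75 (adjusted p = 0.36)), and Hspa1b was 2767, 1127, 4839, 528 and 498 against 6056, 467, 513, 1669 and 907 (-0.17 ± 0.81 (adjusted p = 0.86)). Both HSP70 copies varied widely within each group, the tumour-free lungs included, and the groups overlapped. Dnajb4 fell (-0.79 ± 0.19 (adjusted p = 0.0026)), as did the ER co-chaperone Dnajc3, an inhibitor of the kinases PERK and PKR (-0.90 ± 0.17 (adjusted p = 0.00064)), and the testis-enriched HSP70 Hspa2 (-1.27 ± 0.31 (adjusted p = 0.0035)). In the ER, Pdia4 (0.98), Hspa13 (0.84) and Hspa5 (0.75) had the largest rises.

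Cell-type markers moved with the tumour comparison in both genotypes. Of the markers tested, 5 of 5 proliferation genes and 3 of 3 tumour-cell genes were higher, and all 6 alveolar type 2, 5 alveolar type 1, 3 club, 3 ciliated and 5 endothelial markers were lower. The sum of 9 cardiac muscle markers was 7988 to 10871 in WT tumour-free lungs and 177 to 7721 in WT HBSS tumour lungs, and that of 6 smooth muscle markers was 10796 to 12663 against 1526 to 12585. The highest tumour lung in both sums was replicate 1, which was also highest for 8 of the 9 inducible genes, for Cryab and for Hspb1. Replicate 1 also had the highest alveolar, club, ciliated, endothelial, mesothelial, skeletal muscle and squamous sums of its group, but not the highest fibroblast or immune sum. Its alveolar type 2 sum was 131191, where the group median was 52131. The sum of 9 handling and immediate early genes was 21024 to 41743 in WT tumour-free and 8288 to 12512 in WT tumour lungs, without overlap, with 6 of 9 called lower, and 14318 to 66892 against 8398 to 22757 in MT2 lungs, with overlap and 5 of 9 called lower. Fos changed by -2.66 ± 0.32 (adjusted p = 4.6e-05) in WT and -2.71 ± 0.90 (adjusted p = 0.019) in MT2 lungs, and Egr1 by -2.42 ± 0.30 (adjusted p = 5.5e-05) and -2.88 ± 0.89 (adjusted p = 0.013). Tumour-free replicate 3 had the highest such sum in both genotypes and also the highest Hspa1a and Hspa1b. Among WT HBSS tumour lungs the sum was highest in replicate 1. Among MT2 HBSS tumour lungs it was highest in replicate 3, which was also highest for 7 of the 9 inducible genes. The group median there was 8801.6. The part of these markers in the chaperone values was not tested. Without WT tumour replicate 1, 40 members were called, 32 higher and 8 lower.

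In MT2 lungs, 21 members rose and 8 fell between tumour-free and HBSS tumour lungs, by limma over 16999 genes of which 31.5% were called higher, 35.9% lower and 67.4% in either direction. The chaperonin rose again in 7 of 7 cases (median 1.40) and the mitochondrial genes in 4 of 4 (1.32). Co-chaperones rose in 4 of 6 cases (0.65), constitutive genes rose in 3 of 7 and fell in 2 (0.20), ER genes rose in 3 of 10 and fell in 1 (-0.01), inducible genes fell in 3 of 9 and rose in 0 (-0.22) and small heat-shock proteins fell in 2 of 4 (-1.77).

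Hspa1a was 2932, 917, 4432, 559 and 1309 in MT2 tumour-free lungs and 61.7, 54.2, 164, 182 and 83.9 in MT2 HBSS tumour lungs, a log2 fold change of -3.98 ± 0.55 (adjusted p = 6.8e-05). Hspa1b was 2912, 870.5, 4506, 655 and 1418 against 151, 108, 489.7, 273 and 214 (-2.89 ± 0.55 (adjusted p = 0.00062)). Every MT2 tumour lung was below every MT2 tumour-free lung for both copies, although the tumour-free lungs themselves spread widely. Cryab was 2282, 2763, 2656, 2820.0 and 2732 against 66.4, 66.7, 176, 701 and 599 (-3.71 ± 0.62 (adjusted p = 0.00028)), and Hspb1 was 1377, 940.4, 1466, 1215 and 1152 against 113, 100.4, 121, 728 and 427 (-2.51 ± 0.51 (adjusted p = 0.00098)). Replicates 4 and 5 were the highest tumour lungs for both small heat-shock proteins, and replicate 4 also had the highest smooth and cardiac muscle sums of its group. Replicate 4 was highest for the endothelial, fibroblast, mesothelial, skeletal muscle and squamous sums as well, and replicate 5 for the alveolar, club, ciliated and immune sums. Hspa2 was 389, 358, 378, 457 and 429 against 87.8, 115, 90.8, 143 and 135 (-1.83 ± 0.17 (adjusted p = 3.5e-06)). Hspe1 rose from 354, 352, 412, 444 and 459 to 1609, 1617, 1439, 1606 and 4043 (2.23 ± 0.26 (adjusted p = 1.7e-05)), with replicate 5 highest. Hsph1, at 844, 674, 648, 995 and 1102 against 563, 844, 616, 872 and 671, overlapped and was not called (-0.25 ± 0.19 (adjusted p = 0.26)).

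**Figure D3:**
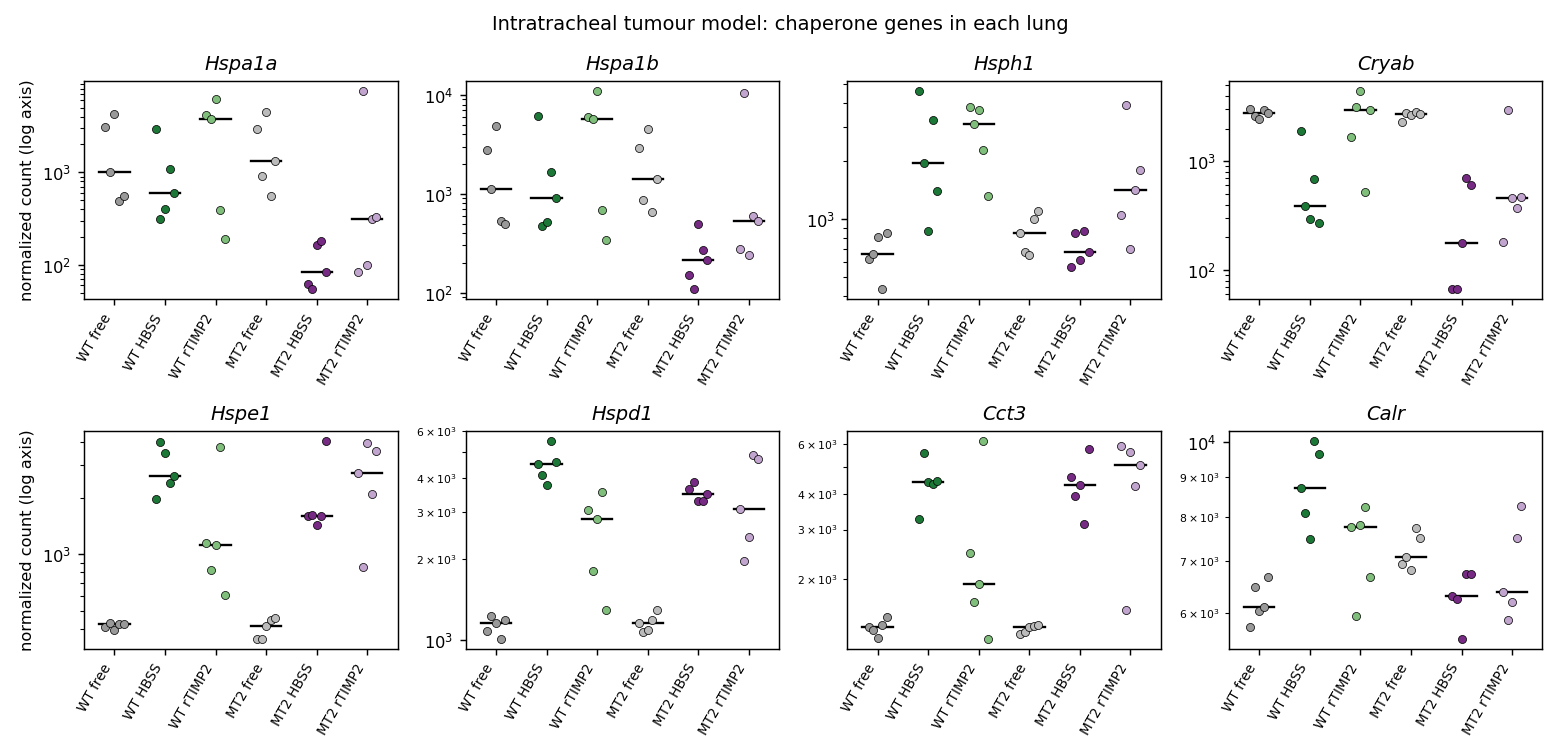
Normalized counts (log axis) of 8 chaperone genes in the intratracheal lungs, with 1 point per library and the group median as a bar (n = 5 in each of 6 groups). Hspe1, Hspd1 and Cct3 are higher in HBSS tumour lungs than in tumour-free lungs of both genotypes, while Hspa1a lies at 54.2 to 182 in MT2 HBSS lungs and 311 to 2952 in WT HBSS lungs.

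The genotypes were then compared directly, which the study's design asks. Between tumour-free MT2 and WT lungs 0 of 48 members were called by limma, where 0.0119% of 16774 genes were called higher, 0.0119% lower and 0.0238% in either direction, and 7 had an unadjusted p under 0.05, 6 of them higher in MT2, against 9.7% of all genes at that unadjusted level. Of those 6, which were Calr, Hspa5, Pdia4, Canx, Hsp90b1 and Hyou1, all are ER genes. The lean was not limited to the ER: the median difference was 0.12 for ER genes (9 of 10 above 0) and 0.15 for inducible genes (8 of 9). It was -0.04 for the chaperonin, with 5 of 7 below 0. Calreticulin (Calr) was 5762, 6486, 6038, 6115 and 6676 in WT and 6955, 7093, 6825, 7731 and 7503 in MT2 tumour-free lungs, a log2 difference of 0.22 ± 0.05 (adjusted p = 0.34). The groups did not overlap, but the difference missed the threshold over all genes.

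Between HBSS tumour lungs of the genotypes 0 of 48 members were called by limma, where 0% of 16299 genes were, and 15 had an unadjusted p under 0.05, all lower in MT2, against 7.4% of all genes. The median difference was -0.68 for inducible genes, -0.60 for co-chaperones and -0.02 for the chaperonin, against -0.03 over all genes. Hspa1a was 2952, 311, 401, 1088 and 598 in WT and 61.7, 54.2, 164, 182 and 83.9 in MT2 tumour lungs, a log2 difference of -2.95 ± 0.57 (adjusted p = 0.39) without overlap. Stip1 was 3518, 3352, 2596, 3439 and 2964 against 1966, 2239, 2068, 2017 and 2151 (-0.60 ± 0.14 (adjusted p = 0.42)), and Hsp90aa1 was 9789, 5925, 6129.6, 10218 and 7650.2 against 4296, 4479, 5329, 5074 and 4987 (-0.68 ± 0.19 (adjusted p = 0.49)), neither overlapping. Calr, 8705, 8094, 7478, 10034 and 9648 against 6306, 6266, 5553, 6748 and 6736, was the other member whose groups were apart (-0.47 ± 0.15 (adjusted p = 0.5)). The share of all genes with groups apart was not computed, so the 4 of 48 members cannot be set against it. Hsph1 overlapped (-1.54 ± 0.38 (adjusted p = 0.43)). Cirbp was 399, 632, 1421, 441 and 701 in WT and 2504, 1517, 2254, 1264 and 1843 in MT2 tumour lungs (1.50 ± 0.32 (adjusted p = 0.42)), and its part was not tested. On simulated data made for this comparison, a log2 change of 1 was recovered in 24% of changed genes and a change of 2 in 77.8%. The simulation drew each gene independently and changed 200 genes. It held no shift in tissue content shared by the genes of a library, so recovery in the real lungs may differ.

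The difference between the tumour effects of the genotypes was tested with an interaction term over the 20 lungs concerned. Of 48 members 0 were called, where 0.0223% of 17927 genes were, and 18 had an unadjusted p under 0.05, all with the lower change in MT2, against 9.9% of all genes. Calr (-0.69 ± 0.14 (adjusted p = 0.1)), Stip1 (-0.71 ± 0.15 (adjusted p = 0.12)) and Hsph1 (-1.89 ± 0.47 (adjusted p = 0.16)) had the lowest p. Hspa1a differed by -3.20 ± 0.99 (adjusted p = 0.26). The median was -0.73 for inducible genes, -0.65 for co-chaperones, -0.26 for ER genes, all 10 below 0, and -0.00 for the chaperonin, against -0.06 over all genes. Calr passed the threshold without MT2 tumour replicate 4 or 5, Stip1 without MT2 tumour replicate 5, and Hsph1 without WT tumour replicate 3.

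**Figure D4:**
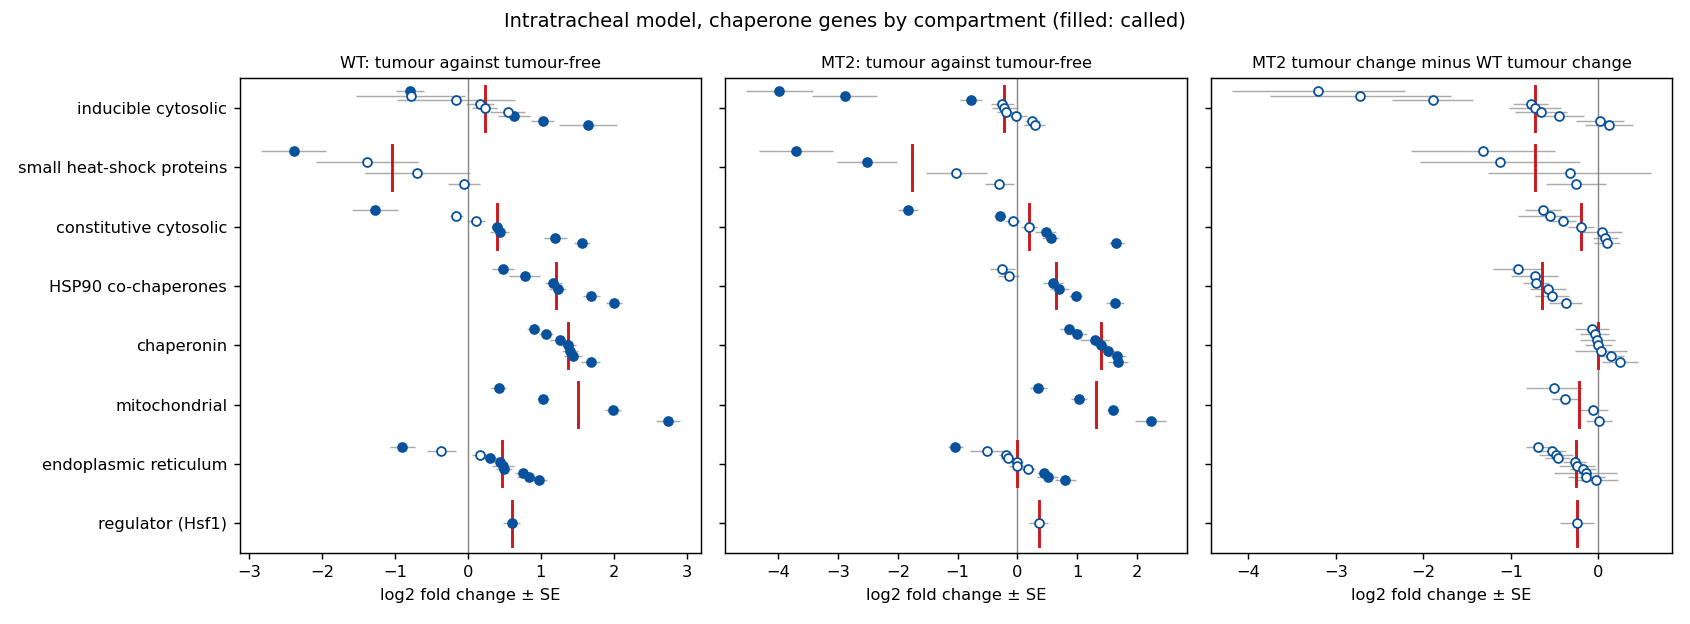
Log2 fold change ± SE of each of the 48 genes by compartment (rows) for tumour against tumour-free lungs in WT and in MT2 mice and for the difference between these changes (panels), filled where limma's adjusted p was under 0.05, with the compartment median as a red bar. The chaperonin and mitochondrial points are all filled and to the right in both genotypes, while no point is filled in the panel of differences.

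For rTIMP2 in the intratracheal model, the calls in WT lungs depended on which libraries were used. No called fold change turned in the recomputed settings. These did not include the later fit without the libraries that had a reporter of 0, where directions were not compared. In WT lungs 3 members rose (Dnajb9, Dnajc3 and Cryab) and 7 fell (Cct8, Cct2, Tcp1, Cacybp, Ptges3, Hspd1 and Hsf1) against HBSS by limma, where 16% of 16908 genes were called higher, 11.3% lower and 27.3% in either direction. The lowest adjusted p among members was 0.0398. Hspd1 was 4523, 4116, 3783, 5529 and 4591 in WT HBSS and 3051, 1806, 2825, 3546 and 1287 in WT rTIMP2 lungs (-0.93 ± 0.27 (adjusted p = 0.04)). Dnajb9, an ER partner of BiP, was 992, 896, 447, 754 and 568 against 1000.4, 1082, 1383, 1148 and 1031 (0.67 ± 0.22 (adjusted p = 0.045)), and Hsf1 was 711, 781, 811, 981 and 1019 against 611, 512, 589, 686 and 563 (-0.53 ± 0.14 (adjusted p = 0.04)). These were the called members whose groups did not overlap. The count was 0 without any of HBSS replicates 2 to 5 or rTIMP2 replicates 1, 2, 3 or 5, 18 without HBSS replicate 1 and 27 without rTIMP2 replicate 4, the rTIMP2 lung with the highest reporter and proliferation levels.

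Single genes show how far the libraries differed. Cct3 was 2481, 1665, 1930.1, 6173 and 1232 in WT rTIMP2 lungs, with replicate 4 above every WT HBSS tumour lung and replicate 5 below every WT tumour-free lung. Hspe1 was 1149.7, 823, 1125, 3733 and 605 (-1.23 ± 0.43 (adjusted p = 0.053)) and Cryab 1675, 3129.6, 4431, 518 and 2948 (1.96 ± 0.65 (adjusted p = 0.049)), where replicate 4 was highest for Hspe1 and lowest for Cryab. Hspa1a was 4153, 3792, 6209, 387 and 189, with replicates 1, 2 and 3 far above replicates 4 and 5. Replicate 3, the highest for Cryab, also had the highest smooth, cardiac and skeletal muscle, mesothelial and squamous sums of the group. Its skeletal muscle sum was 175608, where the group median was 525. The highest alveolar, club, ciliated and endothelial sums were in replicates 2 and 5. The handling and immediate early sum was highest in replicate 2, at 14839, a lung that was highest for 0 inducible genes. The part of these markers was not tested. Replicates 2, 3 and 5 are those with a reporter of 0 and low Xist. In a fit chosen after seeing the data that leaves out these 3 libraries, 0 of 48 members and 0% of 17850 genes were called by limma, and 0 members had an unadjusted p under 0.05, against 3.9% of all genes, with 2 rTIMP2 lungs left.

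In MT2 lungs rTIMP2 was followed by 0 called members, where 0% of 16248 genes were called by limma, and 3 had an unadjusted p under 0.05, all higher (Chordc1, Hsph1 and Dnajb1), against 9.6% of all genes. Hspa1a was 61.7, 54.2, 164, 182 and 83.9 in MT2 HBSS and 83, 7569, 99.7, 314 and 326 in MT2 rTIMP2 lungs (1.91 ± 1.03 (adjusted p = 0.54)), where replicate 2 was far above the other 4. That lung had the highest value of its group for 8 of 9 inducible genes and the lowest for 27 of 48 members, Cct3 among them, at 5925, 1567, 5608, 4279 and 5069.7. Its reporter was 0.983. Its alveolar, club, ciliated, endothelial, fibroblast, mesothelial and smooth, cardiac and skeletal muscle sums were the highest of the group, while its immune and squamous sums were not. The handling and immediate early sum was highest there too, at 21015, where the group median was 9552.5. The part of these markers was not tested. The interaction of genotype and rTIMP2 gave 0 called members, where 0% of 17841 genes were called, and 6 with an unadjusted p under 0.05, all with the higher change in MT2, against 5.9% of all genes.

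Of the 70 further proteostasis genes, 34 rose and 17 fell with the tumour in WT lungs, and 28 rose and 13 fell of 69 tested in MT2 lungs. These shares, 72.9% and 59.4%, lie near the 70.5% and 67.4% of all genes. The HSP90 co-chaperone Fkbp5 was the largest rise (2.99 ± 0.22 (adjusted p = 2.0e-06) in WT and 4.08 ± 0.27 (adjusted p = 4.0e-07) in MT2), and Hspa12a (-2.86 ± 0.50 (adjusted p = 0.00042) and -3.96 ± 0.48 (adjusted p = 2.6e-05)) and Dnaja4 (-2.34 ± 0.61 (adjusted p = 0.0056) and -3.85 ± 0.63 (adjusted p = 0.00022)) were the largest falls. Serpinh1 was higher in MT2 than in WT tumour-free lungs (0.36 ± 0.06 (adjusted p = 0.034)), and its change with the tumour was lower in MT2 (-0.99 ± 0.14 (adjusted p = 0.0088)). With all groups in 1 fit both calls were lost (adjusted p = 1 and 0.33), and the first was lost in 11 of 15 settings, 8 of them with 1 library left out. With rTIMP2, 6 rose and 8 fell in WT lungs (20%, all genes 27.3%) and 0 of 69 were called in MT2 lungs, and 0 of 69 were called between the genotypes' HBSS tumour lungs.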

How the data were processed

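RNA was measured in 44 lung libraries, 14 of the subcutaneous and 30 of the intratracheal model. The values are a normalized signal that the authors deposited as normalized counts, 1 per gene and library. Per the submitters' processing notes, the authors used Partek, Bowtie2, STAR and DESeq2 with genome build mm10. It is not given in the sources used here what each tool did, in which version, whether counting used the strand, or how reads with several positions were counted. In each library low values move in steps of 1 size, and 78.9 to 84.5% of them were whole multiples of that step (tolerance 0.02 of a step, up to 20 steps). That share is too low to recover reads, so no count model was fitted. The step gives the estimated depth, which limits precision for low genes most.

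Groups were taken from the sample titles, since the treatment field of treated intratracheal mice counts from Timp2 upward. Values plus 1 were log2-transformed and tested with limma 3.58.1 (R 4.3.3, lmFit and then eBayes with a trend and robust estimation), over the groups compared, for genes with a value of at least 10 in as many libraries as the smallest group has. All 48 members passed that filter in each of 11 comparisons. Fold changes are on this scale, p-values were adjusted by Benjamini-Hochberg over all genes tested, and a gene is called at an adjusted p under 0.05. No paired test was used. In simulated data of the day 0 comparison, with 200 changed genes among 17308, 77.6% of log2 changes of 1 and 95.9% of changes of 2 were recovered. Genes were simulated independently, so recovery in the real data may differ.

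Values in every library are given for the 6 called members per comparison with the largest fold change and no overlap between groups, and for genes needed for contrast. The share of all genes without overlap was not computed for any comparison. Of the other proteostasis genes, at most 2 per direction and comparison are named. Members and lists were chosen with earlier results of these data known. Promoters were searched with Python 3.11.15, pandas 2.3.3 and Biopython 1.88, and gene coordinates are from GENCODE M21 (GRCm38). Alternatives were a pseudocount of 5, no filter, all groups in 1 fit, equal library totals, a replicate block, leaving out each library and, chosen after seeing the data, leaving out the rTIMP2 libraries with little or no reporter.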

Additional observations from a re-analysis of the deposited data

Results flagged for a closer look

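Among 18 member genes described with values in every library, each of 162 sets of a gene in a group was searched for a highest or lowest library whose gap to the next, as a share of the group's range, passed Dixon's critical value. In 17 sets it did, where independent normal values would give about 1 in 20. The sets here are untransformed counts of related genes in the same libraries, so that rate need not apply. Replicate 2 of the MT2 rTIMP2 group stood above the other 4 lungs for Hspa1a (7569, next 326), Hspa1b (10536, next 595), Hspb1 (2974, next 263), Cryab (2987, next 468), Dnaja1 (5276, next 2144), Dnajb1 (3318, next 1293) and Hspa2 (446, next 141). Replicate 1 of the WT HBSS tumour group stood above the others for Hspa1b (6056, next 1669), Hspb1 (2588, next 766), Cryab (1880, next 682) and Hspa2 (389, next 167).

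In the WT rTIMP2 group, replicate 4 stood above the others for Cct3 (6173, next 2481) and Hspe1 (3733, next 1150), and replicate 5 stood below them for Chordc1 (698, next 1348) and Dnajb1 (598, next 1845). In the MT2 HBSS tumour group, replicate 5 stood above for Hspe1 (4043, next 1617) and replicate 3 for Hspa4l (2126, next 1301). No subcutaneous library stood apart in this way.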

How the results depend on the processing

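Of 2038 recomputed fold changes of called members, 1793 kept direction and call, 245 lost the call and 0 turned, over 14 to 15 settings per comparison. The fit that leaves out rTIMP2 libraries with little or no reporter was not among these settings. Members called in every setting were 29 of 31 for day 0 against HBSS, 13 of 24 for day 7 against HBSS, 1 of 8 for day 7 against day 0 (Chordc1), 33 of 36 for the WT tumour comparison, 25 of 29 for the MT2 one and 0 of 10 for rTIMP2 in WT lungs.

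No pairing of libraries by replicate number is stated. No comparison had all same-numbered pairs correlated above 0.1 (day 0 against HBSS -0.165 to -0.00422, WT rTIMP2 against HBSS -0.618 to -0.29). Pairs ran from 0.0524 to 0.116 for MT2 tumour against tumour-free lungs, and from -0.587 to 0.591 between genotypes in HBSS tumour lungs. These correlations cannot exclude a shared batch, since a batch need not move same-numbered libraries together. With the replicate block, members called were 29 for day 0 and 22 for day 7 against HBSS, 2 between the starts and 0 for WT rTIMP2, and genes called were 1087 for day 7 against HBSS, 22 between the starts, 0 for WT rTIMP2 and 2 for the genotype and tumour interaction. With all groups in 1 fit, members called were 2 between the starts and 21 for WT rTIMP2, and genes called were 2298 for day 0 against HBSS, 0 between genotypes in tumour-free lungs, 119 between genotypes in HBSS tumour lungs, 7773 for WT rTIMP2, 575 for MT2 rTIMP2 and 0 for the genotype and tumour interaction. Equal library totals gave 5 members between the starts and 2 genes between tumour-free genotypes. No filter gave 4 members for WT rTIMP2, and a pseudocount of 5 gave 1 gene for MT2 rTIMP2. Leaving out the 3 WT rTIMP2 libraries with a reporter of 0, chosen after seeing the data, gave 0 members and 0 genes for WT rTIMP2. The cause was not tested.

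Leaving out 1 library at a time, members and genes called ranged from 30 to 33 and 861 to 1453 (day 0 against HBSS), 14 to 25 and 834 to 2149 (day 7 against HBSS), 1 to 9 and 8 to 65 (between the starts), 34 to 40 and 11395 to 13018 (WT tumour), 25 to 32 and 10879 to 12778 (MT2 tumour), 0 to 27 and 0 to 9584 (WT rTIMP2), 0 to 2 and 2 to 55 (genotype and tumour interaction). Between tumour-free genotypes 2 to 9 genes and 0 members were called, and between HBSS tumour lungs 0 to 1 genes and 0 members. A pair of heat-shock units was found in 16 members where a run of 3 was found in 5.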
